A study of Mus musculus with 15 samples.

Results

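The 8 cholesterol synthesis enzymes described here were Hmgcs1, Mvd, Idi1, Fdps, Fdft1, Sqle, Lss and Dhcr7, chosen by name from a table of 55536 mouse genes and matched to it by gene symbol. All 8 passed the filter on low counts and were among the 18090 genes tested. They were followed over 5 groups of 3 RNA-seq libraries each: naive ESCs, EpiLCs, and PGCLCs after 2, 4 and 6 days of induction (D2PGCLCs, D4PGCLCs and D6PGCLCs). All groups came from a mouse ESC line with a Stella-eGFP reporter and the transcription factors Prdm1, Prdm14, Tfap2c and Nanog under doxycycline control, made as selected clones, so a group is a model of that line and not of several donors. ESCs, pluripotent cells of the naive state, were kept in serum-free N2B27 with LIF, 1 µM PD0325901 and 3 µM CHIR99021. EpiLCs, cells that resemble the formative epiblast, were made from them in 48 h with 20 ng/ml Activin A, 12 ng/ml bFGF and 1% knockout serum replacement. PGCLCs, which model primordial germ cells, were grown from EpiLC aggregates in medium with 15% knockout serum replacement and 2 µg/ml doxycycline, and Stella-eGFP+ cells were sorted. The medium changed together with the cell state at each of these transitions, and the contributions of medium, sorting, transgenes and cell state cannot be told apart.

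Cholesterol is built from acetyl-CoA. The mevalonate arm of the pathway makes the isoprenoid building blocks, Fdft1 commits them to sterols by forming squalene, Sqle and Lss turn squalene into lanosterol, and a further series of enzymes that includes Dhcr7 trims lanosterol to cholesterol. When sterols in the endoplasmic reticulum run low, SCAP escorts the transcription factor SREBP2 (Srebf2) out of that compartment, SREBP2 is cut free by the proteases S1P (Mbtps1) and S2P (Mbtps2), and it binds sterol regulatory elements in promoters of this pathway together with NF-Y and SP1. INSIG1 holds the complex back when sterols are plentiful. Rapidly dividing pluripotent cells need sterols for membranes, and the same pathway feeds protein prenylation and ubiquinone.

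Depth ranged from 22555021 to 42725681 counts per library, so 3 counts corresponded to 0.0661 to 0.132 CPM, counts scaled to TMM-normalized library size. D6PGCLC replicate 1 stood apart, with 18061 genes detected where the other libraries had 21103 to 24343, and the numbers of differentially expressed enzymes in D6PGCLCs relative to ESCs, EpiLCs and D4PGCLCs are therefore also given without it. Marker sums followed the labels: the 6 naive markers (Klf4, Klf2, Zfp42, Esrrb, Tbx3 and Tfcp2l1) summed to 2367 to 2393 CPM in ESCs and 354 to 359 CPM in EpiLCs, the 4 formative markers (Fgf5, Otx2, Pou3f1 and Dnmt3b) to 1824 to 1966 CPM in EpiLCs and 49.2 to 67.5 CPM in D2PGCLCs, and 6 germ cell markers (Prdm1, Tfap2c, Dppa3, Nanos3, Dnd1 and Itgb3) to 225 to 234 CPM in EpiLCs and 959 to 973 CPM in D2PGCLCs. Prdm1 and Tfap2c are also transgenes, and the reporter used for sorting was a transgene with Dppa3 (Stella) flanking sequences. The labels do not say that replicates were separate cultures, so p-values measure the spread between these libraries, which may be technical. In bulk RNA, fewer cells of one type and less RNA per cell cannot be told apart.

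The promoters of 4 of the enzymes are shown because genes of this pathway are textbook SREBP2 targets. These 4 are the enzymes with a long enough stretch free of annotated exons. RefSeq windows of the GRCm38.p6 assembly, 250 bases before to 50 after a start site, were at hand for 5 of the 8 enzymes. The stretches below are the upstream parts that overlap no annotated exon, at chr13:119690201-119690350 (plus strand) for Hmgcs1, chr8:122443423-122443572 (minus strand) for Mvd, chr10:76531455-76531587 (plus strand) for Lss and chr7:143823017-143823144 (plus strand) for the first of the Dhcr7 windows, each read 5′ to 3′ on the strand of its gene. Capitals mark letters that match a sterol regulatory element (TCACNCCAC) or an NF-Y box (CCAAT, or ATTGG on the other strand), of which the Dhcr7 stretch has none. The Idi1 stretch is not shown because exons cover it.
Hmgcs1: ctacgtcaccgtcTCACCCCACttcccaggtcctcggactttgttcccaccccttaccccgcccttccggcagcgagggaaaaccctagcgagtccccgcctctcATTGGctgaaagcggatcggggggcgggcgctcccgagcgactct
Mvd: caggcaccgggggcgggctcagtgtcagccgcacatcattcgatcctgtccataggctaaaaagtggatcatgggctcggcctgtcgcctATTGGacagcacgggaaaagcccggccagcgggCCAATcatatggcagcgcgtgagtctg
Lss: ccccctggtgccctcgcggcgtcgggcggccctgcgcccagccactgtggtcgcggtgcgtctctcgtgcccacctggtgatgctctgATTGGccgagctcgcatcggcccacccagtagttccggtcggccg
Dhcr7: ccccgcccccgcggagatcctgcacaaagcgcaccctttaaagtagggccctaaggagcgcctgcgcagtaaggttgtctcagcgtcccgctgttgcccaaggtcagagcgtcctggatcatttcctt
The sterol element letters stood in the Hmgcs1 window, 137 bases before the start site, as TCACCCCAC, and 1.24% of all 32851 RefSeq windows held a match on either strand. The windows of the other 4 enzymes, Mvd, Idi1, Lss and Dhcr7, did not hold these letters. NF-Y box letters were far more common, in 37.4% of all windows. Among the enzymes, the window of Hmgcs1 held 4 NF-Y matches, that of Mvd 2, that of Idi1 2 and that of Lss 1, while of the 3 Dhcr7 windows 1 held 2 matches. SP1 box letters (GGGCGG), in 35.7% of all windows, occurred 3 times for Hmgcs1, once for Mvd and for Idi1, and 2 times for Lss, and 1 and 3 times in 2 of the Dhcr7 windows. The 6 letters of an E-box (CACGTG), in 7.15% of all windows, stood in 1 Dhcr7 window. A match describes letters only and shows no binding.

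Across the time course, 7 of the 8 enzymes had their highest mean in EpiLCs and 7 had their lowest in D6PGCLCs. The share of all tested genes with these extremes was not counted. Dhcr7 was highest in ESCs, where its replicates overlapped those of EpiLCs, and Fdps was lowest in D4PGCLCs, where its replicates overlapped those of D6PGCLCs. Fdps replicates of EpiLCs and ESCs overlapped as well. The ratio of the highest to the lowest group mean ran from 3.00-fold for Mvd to 8.09-fold for Fdps. Fdps levels, here and in the orders that follow, are uncertain, because 86.4% of its 50-base windows recur in 8 other genes. To compare genes with each other, levels were divided by exon length. In EpiLCs Hmgcs1 was then the most abundant, at 173 ± 11.3 CPM per kb (SD, n = 3), followed by Fdft1 at 71.3 ± 1.12, Mvd at 63.4 ± 2.73, Sqle at 56.6 ± 1.69, Lss at 33.5 ± 1.23, Idi1 at 29.7 ± 1.62, Dhcr7 at 21.9 ± 1.93 and Fdps at 1.79 ± 0.206 CPM per kb. This order depends on the length used: merged exons were about as long as the longest protein-coding transcript for Mvd but far longer for Fdps, Sqle, Lss and Dhcr7. Per kb of that transcript, a choice made after seeing the data, Hmgcs1 stayed first at 229.7 CPM per kb, followed by Sqle at 114, Fdft1 at 81.5, Lss at 77.4, Mvd at 67.2, Dhcr7 at 45.2, Idi1 at 34.4 and Fdps at 5.44 CPM per kb. Summed over the 8 enzymes and per kb of merged exons, the level was 295 ± 7.04 CPM per kb in ESCs and 451 ± 8.91 in EpiLCs, and it was 190.1 ± 22.5, 174 ± 18.5 and 121 ± 13.3 on days 2, 4 and 6 of PGCLC induction. Hmgcs1 carried the largest part of that sum in every group.

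**Figure D1:**
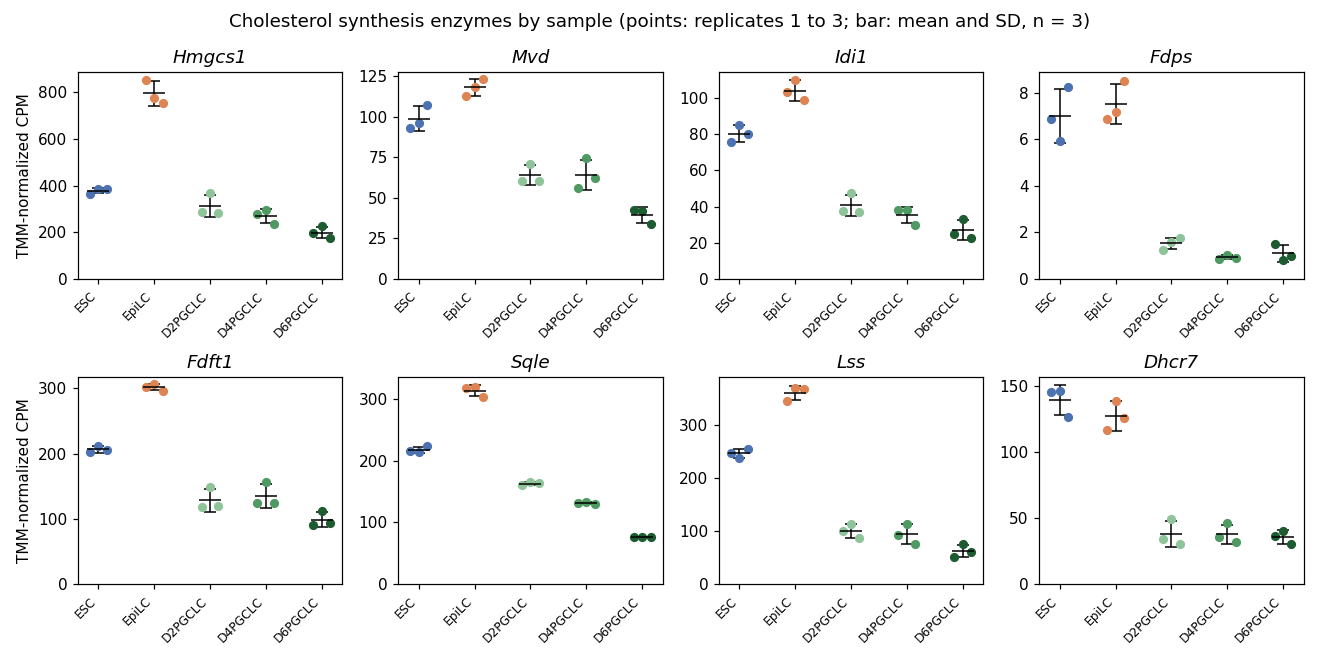
TMM-normalized CPM (vertical axes, starting at 0) of each of the 8 enzymes in the 15 libraries, grouped from ESC to D6PGCLC. Points are replicates and bars the mean and SD (n = 3). For Hmgcs1 the 3 EpiLC libraries sit between 756 and 854 CPM, above every other library, and for Sqle no 2 groups overlap.

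Hmgcs1 (ENSMUSG00000093930, chr13:119690379-119708260 of mm10, plus strand) encodes the cytosolic synthase that joins acetyl-CoA and acetoacetyl-CoA to HMG-CoA. Its level was 366, 385 and 387 CPM in the ESC replicates and 854, 776 and 756 CPM in the EpiLC replicates. In PGCLCs it was 288, 367 and 283 CPM on day 2, 278, 297 and 236 CPM on day 4, and 196, 226 and 175 CPM on day 6. The EpiLC libraries thus lay apart from all others, whereas D2PGCLC replicate 2 fell within the ESC range. Hmgcs1 rose in EpiLCs relative to ESCs by 1.07 on the log2 scale (SE 0.11, edgeR adjusted p = 1.74e-07), or 2.10-fold. It fell by 1.35 (SE 0.11, adjusted p = 9.44e-09) from EpiLCs to D2PGCLCs.

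Mvd and Idi1 act further along the mevalonate arm. Mvd (ENSMUSG00000006517, chr8:122433601-122443422, minus strand) decarboxylates mevalonate diphosphate to isopentenyl diphosphate, and Idi1 (ENSMUSG00000058258, chr13:8885501-8892451, plus strand) isomerizes that product to dimethylallyl diphosphate. Mvd ranged from 92.8 to 107 CPM in ESCs, 113 to 123 in EpiLCs, 60.01 to 71.0 on day 2, 56.1 to 74.2 on day 4 and 33.6 to 42.5 on day 6. Idi1 ranged from 75.9 to 85.1 CPM in ESCs and 98.8 to 110.1 in EpiLCs, and from 37.1 to 47.3, 29.99 to 37.9 and 22.5 to 33.3 CPM in D2PGCLCs, D4PGCLCs and D6PGCLCs. For both, every PGCLC library was below every ESC and EpiLC library. Of the 50-base windows of the longest Idi1 transcript, 21.3% recur in 4 other annotated genes, so part of its reads may be assigned elsewhere. The most counted of these, Gm13502, averaged 2.30 CPM in EpiLCs and 0.258 CPM in D6PGCLCs.

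Fdps (ENSMUSG00000059743, chr3:89093588-89101959, minus strand) makes farnesyl diphosphate, the branch point between sterols and prenylated proteins. Its values were low throughout, at 6.90, 5.92 and 8.24 CPM in ESCs and 6.89, 7.17 and 8.51 CPM in EpiLCs. They were 1.26, 1.58 and 1.74 CPM in D2PGCLCs, 0.849, 1.02 and 0.917 CPM in D4PGCLCs and 1.498, 0.793 and 0.992 CPM in D6PGCLCs, from 28 to 246 counts per library. The day 2 libraries all lay below the EpiLC libraries, and the change was -2.30 on the log2 scale (SE 0.25, adjusted p = 3.01e-07). These levels are uncertain: 86.4% of the 50-base windows of Fdps recur in 8 other genes, and how reads with several matches were counted is not given in the sources used here. Summed over Fdps and these 8 genes, the level was 10.8 ± 0.881 CPM in EpiLCs and 2.61 ± 0.259 CPM in D2PGCLCs (SD, n = 3). Fdps alone supplied means of 7.52 and 1.52 CPM to these sums, so their direction largely follows from Fdps. The sum does not recover reads with several matches if these were left out, so it cannot settle the doubt.

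Fdft1 (ENSMUSG00000021273, chr14:63145150-63179578, minus strand) is squalene synthase. It ranged from 202 to 212 CPM in ESCs and 296.5 to 306 CPM in EpiLCs, and from 117 to 149, 124 to 156 and 90.8 to 112 CPM on PGCLC days 2, 4 and 6. ESCs, EpiLCs and PGCLCs formed separate ranges, while days 2 and 4 overlapped. Fdft1 overlaps Ctsb on the opposite strand, and 10.9% of its windows recur in the pseudogene Gm6781, which averaged at most 0.258 CPM in a group.

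Sqle (ENSMUSG00000022351, chr15:59315077-59331192, plus strand) is squalene epoxidase, the first oxygen-requiring step of the pathway. It read 216, 214 and 223 CPM in ESCs and 319, 319.9 and 303 CPM in EpiLCs. On day 2 its replicates were at 160.5, 165 and 164 CPM, on day 4 at 131, 133 and 130.1 CPM and on day 6 at 76.3, 77.0 and 76.2 CPM. Sqle was the enzyme with the closest PGCLC replicates, and its groups were in separate ranges at every point. Its 50-base windows did not recur in other genes, nor did those of Hmgcs1, Mvd, Lss and Dhcr7.

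Lss (ENSMUSG00000033105, chr10:76531588-76557138, plus strand) cyclizes squalene epoxide to lanosterol. Lss was at 247, 239 and 256 CPM in ESCs and 346, 369.5 and 368 CPM in EpiLCs. It then stood at 101, 113 and 87.2 CPM on day 2, at 92.4, 114 and 76.4 CPM on day 4 and at 52.0, 74.8 and 61.2 CPM on day 6. The highest PGCLC library, at 114 CPM, was below the lowest ESC library, at 239 CPM. From EpiLCs to D2PGCLCs Lss fell by 1.85 on the log2 scale (SE 0.14, adjusted p = 1.7e-09), a 3.60-fold lower level.

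Dhcr7 (ENSMUSG00000058454, chr7:143823145-143848410, plus strand) reduces 7-dehydrocholesterol in the last step of one branch of the pathway. Its replicates were at 145, 147 and 127 CPM in ESCs and at 117, 139 and 126 CPM in EpiLCs. They were at 34.4, 49.5 and 30.2 CPM on day 2, 35.6, 46.1 and 31.8 CPM on day 4, and 36.5, 40.6 and 30.2 CPM on day 6. Dhcr7 therefore had an upper level, shared by ESCs and EpiLCs, and a lower one shared by the 3 PGCLC days. Its change from EpiLCs to D2PGCLCs was -1.75 (SE 0.16, adjusted p = 4.13e-08), and that from D2PGCLCs to D6PGCLCs was -0.085 (SE 0.16, adjusted p = 0.709).

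The first comparison asked how the pathway stood after naive ESCs became EpiLCs. Differentially expressed genes (DEGs) had to reach an edgeR adjusted p under 0.05 and to differ by more than 1 on the log2 scale in either direction. Among the 8 enzymes, 1 was a DEG, Hmgcs1, which was higher, where 14.4% of all tested genes were higher DEGs. At any fold change, 5 of the 8 rose, against 26.3% of all tested genes. These were Hmgcs1, Lss (0.55, SE 0.13, adjusted p = 0.00174), Fdft1 (0.55, SE 0.11, adjusted p = 0.000255), Sqle (0.53, SE 0.061, adjusted p = 7.99e-07) and Idi1 (0.37, SE 0.13, adjusted p = 0.0201). Mvd differed by 0.26 (adjusted p = 0.0541) with no overlap of replicates. Fdps at 0.10 (adjusted p = 0.745) and Dhcr7 at -0.13 (adjusted p = 0.497) did not pass, and their replicates overlapped. The median log2 fold change of the 8 was 0.45. Markers of other cell types also moved. The sum of 6 fibroblast markers was 7.58 to 8.38 CPM in ESCs and 24.0 to 25.1 CPM in EpiLCs. In the same groups, 6 mesoderm markers summed to 37.4 to 39.5 and 8.30 to 9.70 CPM. Sums over 5 neuroectoderm markers were 79.6 to 91.3 and 57.6 to 67.3 CPM, and those over 7 endoderm markers 5.66 to 6.66 and 3.75 to 4.59 CPM. The neuroectoderm sum fell although most of its markers rose. Of these 5, 3 were higher DEGs (14.4% of all tested genes) and 1 fell at any fold change, with a median log2 fold change of 1.25. Medians were -0.049 over the 6 endoderm markers tested and -0.99 over the 5 mesoderm markers tested. The part of all these markers in the result was not tested.

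The second comparison, D2PGCLCs against EpiLCs, covered the start of induction and was the largest single step. All 8 enzymes fell at any fold change, where 26% of all tested genes did, and 6 of them were DEGs, where 14.4% of all tested genes were lower DEGs. The median log2 fold change was -1.35. Beyond Fdps, Lss and Dhcr7, the changes were -1.36 for Idi1 (SE 0.13, adjusted p = 7.88e-08), -1.35 for Hmgcs1 and -1.23 for Fdft1 (SE 0.11, adjusted p = 1.84e-08). Sqle (-0.95, SE 0.062, adjusted p = 3.72e-10) and Mvd (-0.89, SE 0.11, adjusted p = 1.72e-06) fell by less than the fold cutoff. Every D2PGCLC library was below every EpiLC library for all 8, as for 30.3% of tested genes. Markers of another cell type moved in the same comparison: the sum of 6 fibroblast markers was 24.0 to 25.1 CPM in EpiLCs and 0.889 to 2.19 CPM in D2PGCLCs, with 5 of the 6 under 1 CPM in all D2PGCLC libraries and 1, Postn, under 1 CPM in all EpiLC libraries. Sums over 5 neuroectoderm markers were 57.6 to 67.3 CPM and 21.4 to 26.4 CPM in the same groups, those over 7 endoderm markers 3.75 to 4.59 and 1.76 to 2.01 CPM, and those over 6 mesoderm markers 8.30 to 9.70 and 18.3 to 24.0 CPM. Of 5 mesoderm markers tested, 1 rose at any fold change (27.2% of all tested genes) and 4 did not pass. Of 6 endoderm markers tested, 3 fell (26% of all tested genes), 1 rose and 2 did not pass. All 7 endoderm and 4 of the 6 mesoderm markers were under 1 CPM in every D2PGCLC library. The part of all these markers in the result was not tested.

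Relative to ESCs rather than EpiLCs, D2PGCLCs were also lower for all 8 enzymes at any fold change (23.4% of all tested genes), and 3 were DEGs (12.7% of all tested genes). These were Fdps (-2.20, SE 0.25), Dhcr7 (-1.88, SE 0.16) and Lss (-1.30, SE 0.13). Idi1 followed at -0.98 (SE 0.13), Fdft1 at -0.68 (SE 0.11), Mvd at -0.63 (SE 0.11), Sqle at -0.42 (SE 0.062) and Hmgcs1 at -0.28 (SE 0.11, adjusted p = 0.0442). The adjusted p of the other 7 was at most 9.66e-05. Hmgcs1 thus had the smallest of the 8 differences relative to ESCs, whereas relative to EpiLCs it was Mvd. Both comparisons use the same D2PGCLC libraries.

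During PGCLC culture the decline was smaller. From day 2 to day 4 none of the 8 enzymes was a DEG by edgeR (0.376% of all tested genes were lower DEGs) or by DESeq2. The smallest unadjusted edgeR p-values were 7.45e-05 for Sqle and 0.0157 for Fdps. At any fold change 1 of 8 fell, Sqle (-0.31, SE 0.062, adjusted p = 0.00299), against 4.6% of all tested genes, while Fdps changed by -0.71 (SE 0.27, adjusted p = 0.0918). The other 6 lay between -0.21 and 0.067.

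From day 4 to day 6 again none was a DEG (0.785% of all tested genes were lower DEGs), by either tool and with or without D6PGCLC replicate 1. At any fold change 5 of 8 fell, where 6.82% of all tested genes did. They were Sqle (-0.78, SE 0.062, adjusted p = 8.91e-07), Mvd (-0.70, SE 0.11, adjusted p = 0.000504), Lss (-0.59, SE 0.13, adjusted p = 0.00759), Fdft1 (-0.45, SE 0.11, adjusted p = 0.00959) and Hmgcs1 (-0.44, SE 0.11, adjusted p = 0.0131). Idi1 was at -0.39 (adjusted p = 0.0613), and at -0.40 (adjusted p = 0.0128) with the replicate number as a block. Dhcr7 was at -0.079 (adjusted p = 0.79) and Fdps at 0.23 (adjusted p = 0.627). The Fdps value rested on D6PGCLC replicate 1 and was -0.067 without it. In the same step the sum of the endoderm markers was 4.52 to 4.97 CPM on day 4 and 9.78 to 18.4 CPM on day 6, that of the neuroectoderm markers 28.3 to 30.7 and 41.6 to 50.03 CPM, that of the mesoderm markers 23.97 to 34.3 and 24.4 to 33.7 CPM, that of the fibroblast markers 2.03 to 2.17 and 1.47 to 2.05 CPM, and that of the germ cell markers 927 to 1023 and 820.1 to 899 CPM, and 4 of these 6 fell at any fold change. Their part in the result was not tested. Over days 2 to 6 together, Sqle was the 1 DEG (-1.09, SE 0.062, adjusted p = 1.29e-09), where 2.75% of tested genes were lower DEGs, and 6 of 8 fell at any fold change, where 18.2% did.

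The end of the course was then set against its starts. In D6PGCLCs 7 of the 8 enzymes were DEGs below ESCs, where 10.3% of all tested genes were, with Hmgcs1 at -0.93 (SE 0.11, adjusted p = 1.12e-06). The 7 were Fdps (-2.69, SE 0.25), Lss (-1.98, SE 0.14), Dhcr7 (-1.96, SE 0.16), Idi1 (-1.57, SE 0.13), Sqle (-1.51, SE 0.063), Mvd (-1.32, SE 0.11) and Fdft1 (-1.07, SE 0.11). Without D6PGCLC replicate 1 the count was 6, with Fdft1 at -0.99, and without D6PGCLC replicate 2 it was 8, with Hmgcs1 at -1.03. Relative to EpiLCs all 8 were lower DEGs, with or without D6PGCLC replicate 1, where 12% of tested genes were. These changes ran from -1.58 for Mvd to -2.78 for Fdps, with Hmgcs1 at -2.001 (SE 0.11, adjusted p = 5.58e-11).

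A further 12 enzymes and cofactors of the pathway, from Acat2 to Sc5d, were described in the same fit. From EpiLCs to D2PGCLCs 10 of these 12 fell at any fold change (26% of all tested genes) and 5 were lower DEGs (14.4%). The median log2 fold change of the 12 was -0.93, beside 0.0033 over all tested genes. In the mevalonate arm, Pmvk, the kinase before Mvd, fell by 1.59 (SE 0.12), from 67.7 ± 3.87 CPM to 22.6 ± 3.53 CPM (SD, n = 3). Acat2, the thiolase that supplies Hmgcs1, fell by 1.39 (SE 0.096), from 199.8 ± 8.86 CPM to 76.1 ± 11.6 CPM, and Mvk, the kinase before Pmvk, by 0.46 (SE 0.14).

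After lanosterol the enzymes were less uniform. The methyl oxidase Msmo1 (-1.60), the dehydrogenase Nsdhl (-1.42) and the desaturase Sc5d (-1.37) were lower DEGs at the start of induction. Ebp, the sterol isomerase, went another way: it fell by 1.99 from ESCs to EpiLCs (59.5 ± 1.999 to 14.9 ± 0.898 CPM) and rose by 0.52 into D2PGCLCs. Tm7sf2, a sterol reductase whose activity Lbr shares, fell by 1.49 from ESCs to EpiLCs. Hsd17b7, the ketosteroid reductase of this arm, was 0.48 higher in D6PGCLCs than in ESCs. It too rose into EpiLCs and fell at the start of induction, with means of 16.3, 30.5 and 16.2 CPM in ESCs, EpiLCs and D2PGCLCs. On day 6 its mean was 22.8 CPM. Erg28, a scaffold of the demethylating complex, changed by 0.12 at the start of induction, which did not pass. By day 6, 9 of the 12 were DEGs below ESCs, where 10.3% of all tested genes were, with a median of -1.26.

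**Figure D2:**
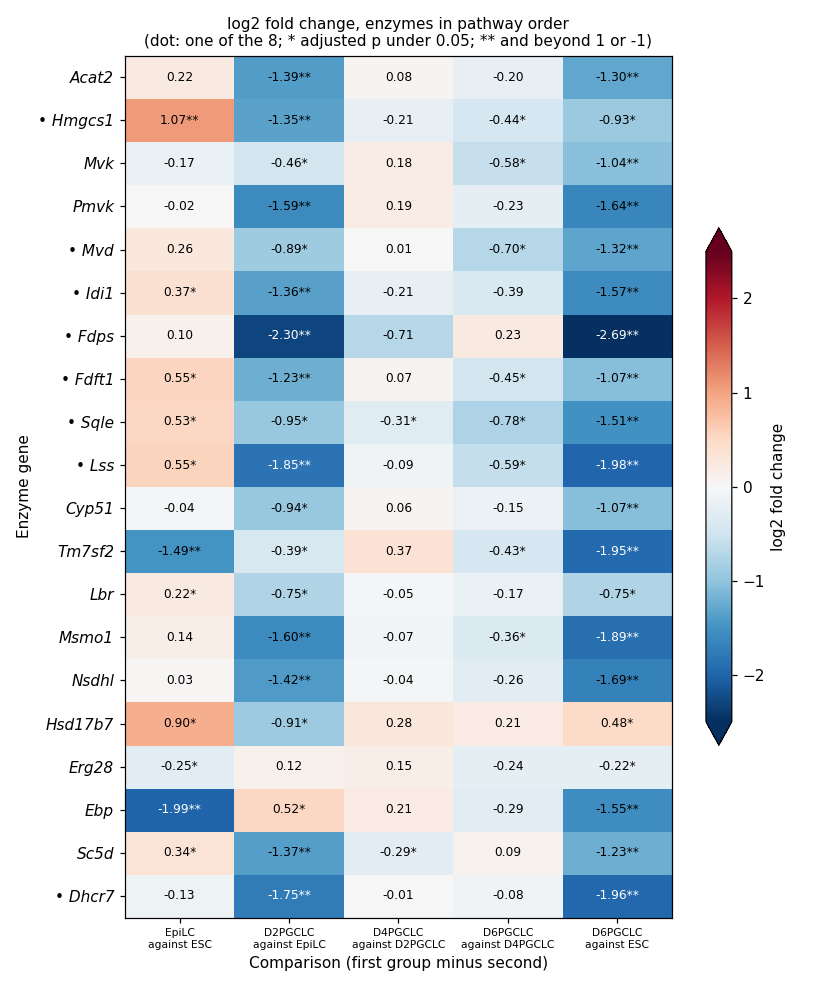
log2 fold change (colour and printed value) of the 8 enzymes and 12 other pathway genes, in pathway order from top to bottom, in 5 comparisons named as first group against second. A dot marks the 8 enzymes, 1 asterisk an adjusted p under 0.05 and 2 asterisks a DEG. The column for D2PGCLC against EpiLC is negative for all genes but Erg28 (0.12) and Ebp (0.52), and that for D4PGCLC against D2PGCLC runs from -0.71 for Fdps to 0.37 for Tm7sf2.

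The sterol-sensing genes did not share one direction. Of 11 genes of the SREBP machinery, 4 rose and 4 fell at any fold change from EpiLCs to D2PGCLCs, where 27.2% of all tested genes rose and 26% fell, and 1 in each direction was a DEG, where 11% of all tested genes were higher and 14.4% lower DEGs. Insig1, itself an SREBP target, fell by 1.97 (SE 0.17), from 275 ± 6.47 CPM to 70.2 ± 20.8 CPM. The transcript of Srebf2 itself fell by 0.36 (SE 0.10), from 313 to 244 CPM, a smaller difference in size than that of any of the 8 enzymes. Mbtps1, the first of the proteases that release SREBP2, rose by 1.18 (SE 0.074), from 173 to 391 CPM. RNA levels do not show how much SREBP2 was cut.

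Of 12 genes of cholesterol uptake and transport, 6 fell and 6 rose in the same step (26% and 27.2% of all tested genes), 3 and 1 of them as DEGs (14.4% and 11%). Lrp8, a lipoprotein receptor, fell by 1.73. Stard4, a sterol carrier, fell by 1.702, and Mylip, a ubiquitin ligase that acts on lipoprotein receptors, fell by 1.196. Stard4 was at 160.7 ± 9.57 CPM in EpiLCs and 49.5 ± 8.75 CPM in D2PGCLCs. Vldlr, the VLDL receptor, rose by 3.09 (SE 0.41) from a mean of 3.24 CPM to 29.97, 9.35 and 43.2 CPM in the D2PGCLC replicates, all above the EpiLC libraries but far apart from each other.

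Of 12 genes of cholesterol efflux, esterification and oxysterols, 11 were tested. From EpiLCs to D2PGCLCs 3 rose and 4 fell at any fold change (27.2% and 26% of all tested genes), with a median log2 fold change of -0.43. In D6PGCLCs 5 were DEGs above ESCs, where 15.8% of tested genes were, and none below. Abca1, which exports cholesterol to lipid-poor apolipoprotein, was 2.63 higher (SE 0.24) on day 6 than in ESCs, with means of 3.18 CPM in ESCs, 4.05 in EpiLCs, 6.56 and 9.46 on days 2 and 4, and 19.7 on day 6. Lipa, the lysosomal lipase that frees cholesterol from esters, was 1.82 higher than in ESCs, but its mean of 15.7 CPM on day 6 compares with 14.6 CPM in EpiLCs and 8.71 CPM on day 2. Soat1, which esterifies cholesterol, was 1.41 higher than in ESCs, and its mean went from 12.0 CPM there to 68.6 in EpiLCs and then to 51.0, 41.0 and 31.8 on days 2, 4 and 6. The oxysterol and bile acid hydroxylases Cyp27a1 (2.65, SE 0.56, from 0.425 to 2.76 CPM) and Cyp7b1 (1.49, SE 0.30, from 1.34 to 3.75 CPM) were the other DEGs, both at low levels. Ch25h had 0 counts in all libraries, which puts it under 0.132 CPM at the 3-count level of the shallowest library.

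Fatty acid synthesis, which shares SREBP control, went down in part: 7 of its 12 genes were lower DEGs in D2PGCLCs relative to EpiLCs (14.4% of all tested genes) and 9 fell at any fold change (26%). The largest decreases were in the desaturases Scd2 (-3.03, SE 0.20, from 939 to 115 CPM), Scd1 (-2.68) and Fads2 (-2.43), whereas Elovl6, an elongase, rose by 0.45. Acly, which supplies cytosolic acetyl-CoA to both pathways, fell by 1.44. Of 10 genes that lead isoprenoids to prenylation, dolichol and ubiquinone, 1 fell and 3 rose at any fold change (26% and 27.2% of all tested genes) and 6 did not pass. Coq2, which attaches the isoprenoid tail of ubiquinone, rose by 1.40.

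**Figure D3:**
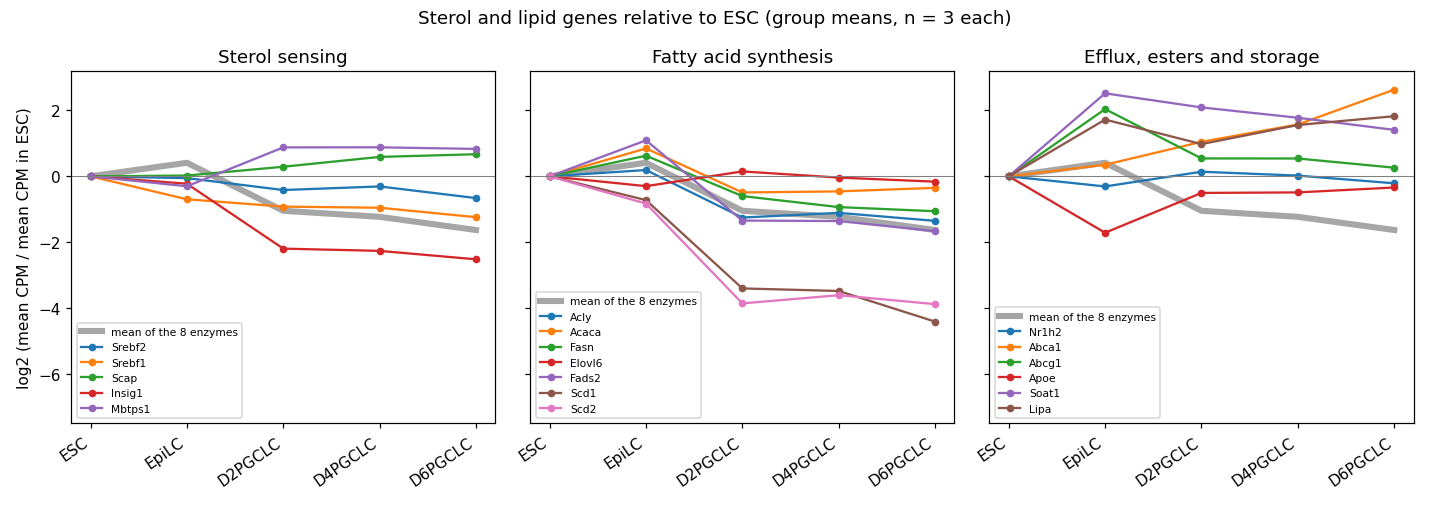
log2 of the group mean CPM over that in ESCs (vertical axis) across the 5 groups for genes of sterol sensing (left), fatty acid synthesis (middle) and efflux or ester turnover (right). The grey line is the mean of the 8 enzymes. Insig1, Scd1 and Scd2 drop below the grey line, Srebf2 stays above it from D2PGCLC on, and Abca1 climbs while the grey line falls.

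Genes with the most similar course were sought among 9168 tested genes with a mean of at least 10 CPM, by the root mean square difference of centred log2(CPM + 1) group means from the mean of the 8 enzymes. Among the 10 nearest were Ptgis (0.091), G6pdx (0.11), Gm49759 (0.11), Zfp989 (0.12), Rdh11 (0.14), Tpi1 (0.14) and Nsdhl (0.15). The same measure for the enzymes themselves ran from 0.023 for Idi1 to 0.32 for Fdps. Each enzyme is part of the mean it is compared with, so these values cannot be set directly against those of other genes. G6pdx, which yields NADPH in the pentose phosphate pathway, went from 132 ± 1.88 CPM in EpiLCs to 48.3 ± 4.77 in D2PGCLCs. Acat2, Fasn, Acly, Msmo1 and Sc5d followed at ranks 14, 15, 16, 18 and 21. The measure rests on 5 group means and describes likeness of profile only.

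Most of the enzymes also moved together between replicates of a PGCLC day. In D2PGCLC replicate 2 all 8 enzymes were above their group mean, and likewise in D4PGCLC replicate 2, with mean log2 deviations of 0.19 and 0.18. In D6PGCLC replicate 2 it was 7 of 8. None of the 8 was above it in D4PGCLC replicate 3 or in D6PGCLC replicate 3, where 49.6% and 52.1% of all tested genes were. In these 2 libraries 5 and 4 of the 12 other pathway enzymes were above it. Sqle hardly moved, with deviations of 0.018 and 0.015 in replicate 2 of days 2 and 4, the smallest of the 8. Among all tested genes, 50.7%, 50.1% and 55.9% were above the group mean in the libraries numbered 2 of days 2, 4 and 6, and of the 12 other pathway enzymes 10, 11 and 11 were. In ESCs and EpiLCs the enzymes deviated by at most 0.24 in either direction, without a library in which all 8 were on one side. Leaving out D2PGCLC replicate 2 kept the number of lower DEGs relative to EpiLCs at 6.

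**Figure D4:**
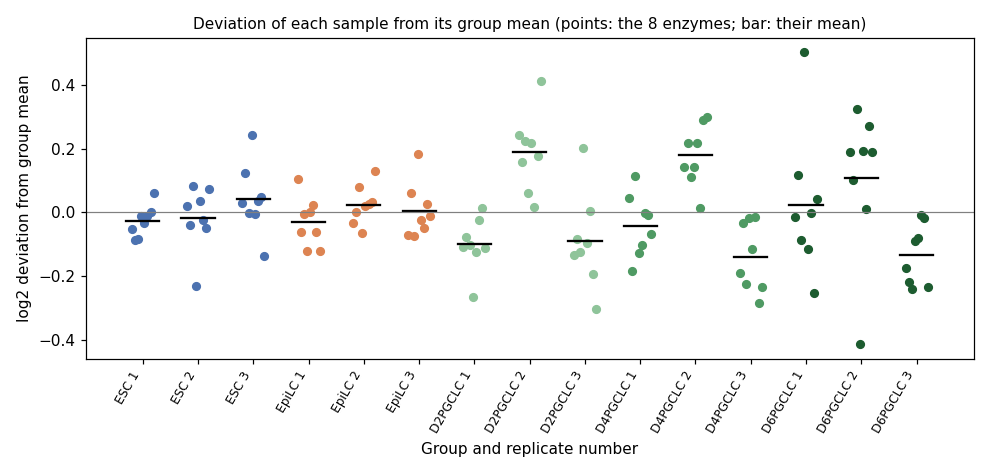
log2 deviation of each of the 8 enzymes (points) from the mean of its group, by group and replicate number, with their mean as a bar. The PGCLC libraries numbered 2 lie above 0 for 8, 8 and 7 enzymes on days 2, 4 and 6, and ESC and EpiLC libraries scatter around 0.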

How the data were processed

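RNA-seq counts were analysed for 15 libraries, grouped by the condition in their labels. Per the labels, the authors deposited raw counts per ENSEMBL gene, without normalization. The submitters' processing notes name Trim Galore, FastQC, STAR and mm10. The counting tool, annotation release and strand setting are not given in the sources used here. Symbols, coordinates and exon lengths came from GENCODE M21, and promoter windows from RefSeq (GRCm38.p6). All libraries were fitted together with edgeR 4.0.16 in R 4.3.3 (TMM, filterByExpr with a minimum of 10 counts, quasi-likelihood test, 1 coefficient per group), with Benjamini-Hochberg adjustment over 18090 genes. The code was tested on simulated data. Alternatives were DESeq2 1.42.0 (the study's tool), its size factors in edgeR, no filter, a replicate block, only the groups compared, no fold cutoff, and each library left out. Within groups, replicates differed beyond counting error (chi-square of 8.82 to 44.6 per gene), so each library counted as 1 replicate. Replicate numbers, which come from the labels, paired D2PGCLC with D4PGCLC libraries (deviations correlated at 0.26 to 0.30), and there the block changed no enzyme's call. Genes named were the 8 enzymes, in each list those with the largest changes (at most 4 per comparison), Srebf2, Insig1 and the 10 nearest profiles; further list members were named after their values were seen. Some genes are not reported here and were left out of the lists. The enzymes and lists were chosen with earlier results of these data known.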

Additional observations from a re-analysis of the deposited data

How the results depend on the processing

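The number of enzymes called depended on the fold-change cutoff: without it, 5 rather than 1 were higher in EpiLCs than in ESCs, 1 rather than 0 lower in D4PGCLCs than in D2PGCLCs, 5 rather than 0 lower in D6PGCLCs than in D4PGCLCs, and 8 rather than 3 lower in D2PGCLCs than in ESCs. No other alternative moved such a count by over 1.5 times. Changes of direction were seen in values near 0. From D2PGCLCs to D4PGCLCs, Mvd was -0.0015 with DESeq2, -0.0014 with its size factors and -0.0095 with only the 2 groups. With 1 library left out at a time, Mvd ranged from -0.11 to 0.10, Fdft1 from -0.052 to 0.18, Lss from -0.25 to 0.042 and Dhcr7 from -0.17 to 0.23. From D4PGCLCs to D6PGCLCs Fdps ranged from -0.067 to 0.42 and Dhcr7 from -0.19 to 0.085, and from ESCs to EpiLCs Fdps from -0.012 to 0.24. Idi1 passed the cutoff in D2PGCLCs relative to ESCs at -1.02 without ESC replicate 1 and at -1.10 without D2PGCLC replicate 2.

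Replicate numbers come from the labels. Over the 30 pairs of libraries of different groups that share a number, deviations correlated at 0.070 on average (-0.18 to 0.36), against -0.035 over 60 other pairs, so the numbers were not taken to pair libraries over the whole course. D4PGCLCs and D6PGCLCs correlated at 0.019, 0.36 and 0.35 for numbers 1, 2 and 3. With the replicate block, 6 enzymes were again lower DEGs in D2PGCLCs than in EpiLCs, Dhcr7 from D2PGCLCs to D4PGCLCs was 0.0013, and Mvd in EpiLCs (0.26, adjusted p = 0.0429) and Idi1 on day 6 relative to day 4 (-0.40, adjusted p = 0.0128) were under 0.05. Depth limits Fdps most, at 28 to 246 counts per library.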

Other observations

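Glycolytic genes separated the PGCLC libraries by replicate number more than the sterol enzymes did. Tpi1, triose phosphate isomerase, was among the nearest profiles, yet its replicates differed widely: it was at 253, 654 and 232 CPM in D2PGCLC replicates 1 to 3, at 227, 589 and 154 CPM in D4PGCLCs and at 174, 383 and 106 CPM in D6PGCLCs. A list of 11 glycolytic enzymes (Hk2, Gpi1, Pfkl, Aldoa, Tpi1, Gapdh, Pgk1, Pgam1, Eno1, Pkm and Ldha) was then chosen after these values were seen. All 11 were above the group mean in replicate 2 of each of the 3 PGCLC days, with median log2 deviations of 0.51, 0.64 and 0.57. In replicate 1 of days 2, 4 and 6, 0, 0 and 2 of 11 were above it. Among all tested genes, 50.7%, 50.1% and 55.9% were above the group mean in replicate 2 of days 2, 4 and 6. The same shares in replicate 1 were 50.9%, 48.4% and 43.4%. Ldha, lactate dehydrogenase A, read 238, 848 and 192 CPM in D2PGCLCs and 1583, 1772 and 1753 CPM in EpiLCs. In ESCs and EpiLCs the median deviation of the list stayed between -0.097 and 0.058. What set these libraries apart was not tested.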
